A study of Mus musculus with 30 samples.

Results

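Border-associated macrophages are described here through 10 of their marker genes, Mrc1, Cd163, Lyve1, Pf4, Stab1, F13a1, Cbr2, Ms4a7, Folr2 and Cd36. They were taken by symbol from the deposited count table, where each has 1 of the 51752 rows. RNA was measured in 30 libraries from 15 mice. The deletion experiment compared 3 animals with both copies of Il34 deleted (KO) with 4 heterozygous animals (Het), so its controls also carry 1 deleted copy. The antibody experiment compared 4 wild-type (WT) animals given blocking antibody against IL34 (anti-IL34) with 4 WT animals given the control antibody (anti-gp120). After saline perfusion each animal gave 1 library of whole forebrain and 1 of cells taken from the other hemisphere with magnetic beads against CD11b, called isolates here and microglia in the labels. The animals' strain and age, and the antibodies' dose and timing, are not given in the sources used here. The question was what happened to these genes where microglia genes fell.

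Microglia and border-associated macrophages are the resident macrophages of the brain. Microglia live in the tissue itself, and border-associated macrophages in the meninges, in the perivascular spaces and at the choroid plexus. Both depend on the receptor encoded by Csf1r, which has 2 ligands, IL34 and CSF1. IL34 is made largely by neurons in the forebrain and is known for maintaining microglia there. CD11b is on the surface of both kinds of macrophage, so an isolation by CD11b takes both. In bulk libraries fewer cells of a type and less RNA per cell cannot be told apart.

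The 250 bases before the annotated start (RefSeq, build GRCm38.p6) are printed for 5 of the genes: Cd163 and F13a1, and Pf4 and Cbr2, the pairs of markers most alike across the isolates described below, and Stab1, which was unlike the others. F13a1 has 2 annotated starts, and both windows are shown. Capitals mark GAGGAAG, the core of the site bound by PU.1, the macrophage transcription factor, or its reverse complement CTTCCTC. Sequences run 5′ to 3′ on the gene's strand.
Cd163, chr6:124304401-124304650, + strand: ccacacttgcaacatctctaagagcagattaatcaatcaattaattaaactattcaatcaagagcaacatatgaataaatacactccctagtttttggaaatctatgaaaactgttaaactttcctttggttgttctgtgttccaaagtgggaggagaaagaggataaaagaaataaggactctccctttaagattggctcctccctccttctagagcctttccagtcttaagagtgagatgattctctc
F13a1, chr13:37050245-37050494, - strand: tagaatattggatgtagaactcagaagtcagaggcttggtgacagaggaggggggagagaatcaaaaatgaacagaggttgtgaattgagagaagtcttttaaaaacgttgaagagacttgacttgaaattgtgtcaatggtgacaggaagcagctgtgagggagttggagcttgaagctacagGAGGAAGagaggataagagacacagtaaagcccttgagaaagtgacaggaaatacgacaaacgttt
F13a1, chr13:37049214-37049463, - strand: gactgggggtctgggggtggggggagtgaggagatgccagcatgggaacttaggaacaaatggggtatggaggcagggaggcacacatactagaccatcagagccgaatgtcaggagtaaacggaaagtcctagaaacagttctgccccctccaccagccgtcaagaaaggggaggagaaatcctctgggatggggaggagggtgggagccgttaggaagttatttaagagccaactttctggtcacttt
Pf4, chr5:90772185-90772434, + strand: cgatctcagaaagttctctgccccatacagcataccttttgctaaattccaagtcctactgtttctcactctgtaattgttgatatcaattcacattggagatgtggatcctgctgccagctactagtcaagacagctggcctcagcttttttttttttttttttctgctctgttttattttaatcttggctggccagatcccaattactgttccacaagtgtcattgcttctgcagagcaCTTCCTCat
Cbr2, chr11:120732022-120732271, - strand: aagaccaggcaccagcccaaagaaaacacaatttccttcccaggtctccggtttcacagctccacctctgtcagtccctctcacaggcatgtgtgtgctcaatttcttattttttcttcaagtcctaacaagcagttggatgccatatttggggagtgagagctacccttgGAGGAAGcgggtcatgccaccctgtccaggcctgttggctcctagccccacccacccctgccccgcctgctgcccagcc
Stab1, chr14:31168642-31168891, - strand: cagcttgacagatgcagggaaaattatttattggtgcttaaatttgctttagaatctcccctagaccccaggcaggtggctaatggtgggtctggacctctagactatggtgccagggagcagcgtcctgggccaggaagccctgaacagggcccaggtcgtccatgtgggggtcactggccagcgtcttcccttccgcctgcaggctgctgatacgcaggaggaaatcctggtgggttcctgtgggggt
The RefSeq table held 9 of the 10 genes, all but Lyve1, and the motif was searched on both strands. These genes have 12 windows, of which 4 held the motif (1 each of Mrc1, Pf4, Cbr2 and F13a1), beside 10.6% of the 32851 windows of all genes. In Cbr2 it began 79 bases before the start, in F13a1 66 bases before the first start, and in Pf4 9 bases before it. The Cd163 and Stab1 windows and the other F13a1 window did not hold these letters. In the GENCODE M21 annotation of GRCm38, Mrc1 spans positions 14229392 to 14332057 of chromosome 2, Stab1 31139013 to 31168641 of chromosome 14, and Lyve1 110850607 to 110863239 of chromosome 7. Genes on the opposite strand share exon bases with 3 markers: 112 bases of Stab1 with Nt5dc2 (mean of 230 counts), 975 bases of Folr2 with Gm10602 (77.4 counts), and 2632 and 1878 bases of F13a1 with Gm30489 and Gm49144 (1.47 and 2.3 counts). The strand setting of the counting is not given in the sources used here, so reads of such a pair cannot be told apart.

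Libraries held 15.1 to 75.2 M counts, M standing for mega-counts. Levels are CPM, counts per M counts of a library, after TMM scaling, which corrects for library size and composition, over the 15 libraries of a tissue. Il34 was 21.4 ± 2.37 CPM in Het forebrain (SD, n = 4) and 7.72 ± 0.991 in KO forebrain (SD, n = 3), with no overlap, so the deletion lowered its count and left some. The isolates held RNA of other cells: the summed level of 7 astrocyte genes was 3111 to 10989 CPM in Het and 12451 to 15343 CPM in KO isolates, and 4652 to 18125 CPM in anti-gp120 and 9919 to 18432 CPM in anti-IL34 isolates. Choroid plexus genes summed to 2728 to 6021 CPM in Het and 2207 to 4918 CPM in KO isolates. The row of Itgam, the CD11b gene itself, had at most 3 counts in any library. A same-strand gene, Gm49368, covers 99.9% of its span, so this row does not measure CD11b RNA.

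All 10 markers were more abundant in isolates than in forebrain of the 8 control animals, by log2 fold changes of 4.14 (Folr2) to 5.63 (Pf4). In this comparison 83.5% of all genes tested passed an adjusted p of 0.05, by edgeR's quasi-likelihood test with Benjamini-Hochberg adjustment over all genes, and 40.5% passed as higher, so the call alone sets the markers apart little. Their median was 5.07, beside 5.44 for the 11 microglia-restricted genes and 5.65 for the 14 tested genes that both kinds of macrophage share. Mrc1, the mannose receptor, rose by 5.50 ± 0.155 on the log2 scale (SE), and Tmem119, a microglia membrane protein, by 5.86 ± 0.155. Of the further 21 border macrophage genes 21 were higher in isolates, among them Hpgd by 4.86, Dab2 by 3.29, Mgl2 by 5.50 and Clec10a by 4.87. The 4 genes of MHC class II were higher by 6.43 to 6.73.

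The levels differed widely between the markers. Per kb of annotated exon, Het isolates held 75.3 ± 10.1 CPM of Mrc1 and 51.8 ± 2.51 of Stab1, the scavenger receptor stabilin-1 (SD, n = 4). F13a1, the A subunit of coagulation factor XIII, followed at 27.0 ± 2.35 CPM per kb of exon. Cbr2, a carbonyl reductase, and Pf4, a chemokine also made by platelets, did not differ beyond their spread, at 17.8 ± 0.928 and 17.6 ± 1.02. Cd163, the receptor for haemoglobin bound to haptoglobin, stood at 13.5 ± 1.74, Lyve1, a receptor for hyaluronan, at 11.2 ± 0.885, and Cd36, a receptor for fatty acids and oxidised lipoproteins, at 10.0 ± 2.65. These 3 neighbours overlapped one another in range. Folr2, the folate receptor beta, and Ms4a7, a membrane protein of the MS4A family, were lowest per kb of exon, at 6.66 ± 1.18 and 3.73 ± 0.439. The length deposited with the counts is the whole gene span for these genes, and per kb of span Stab1 was first at 18 CPM, Pf4 next at 13.4 and Cd36 last at 0.336, so the order depends on which length applies.

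**Figure D1:**
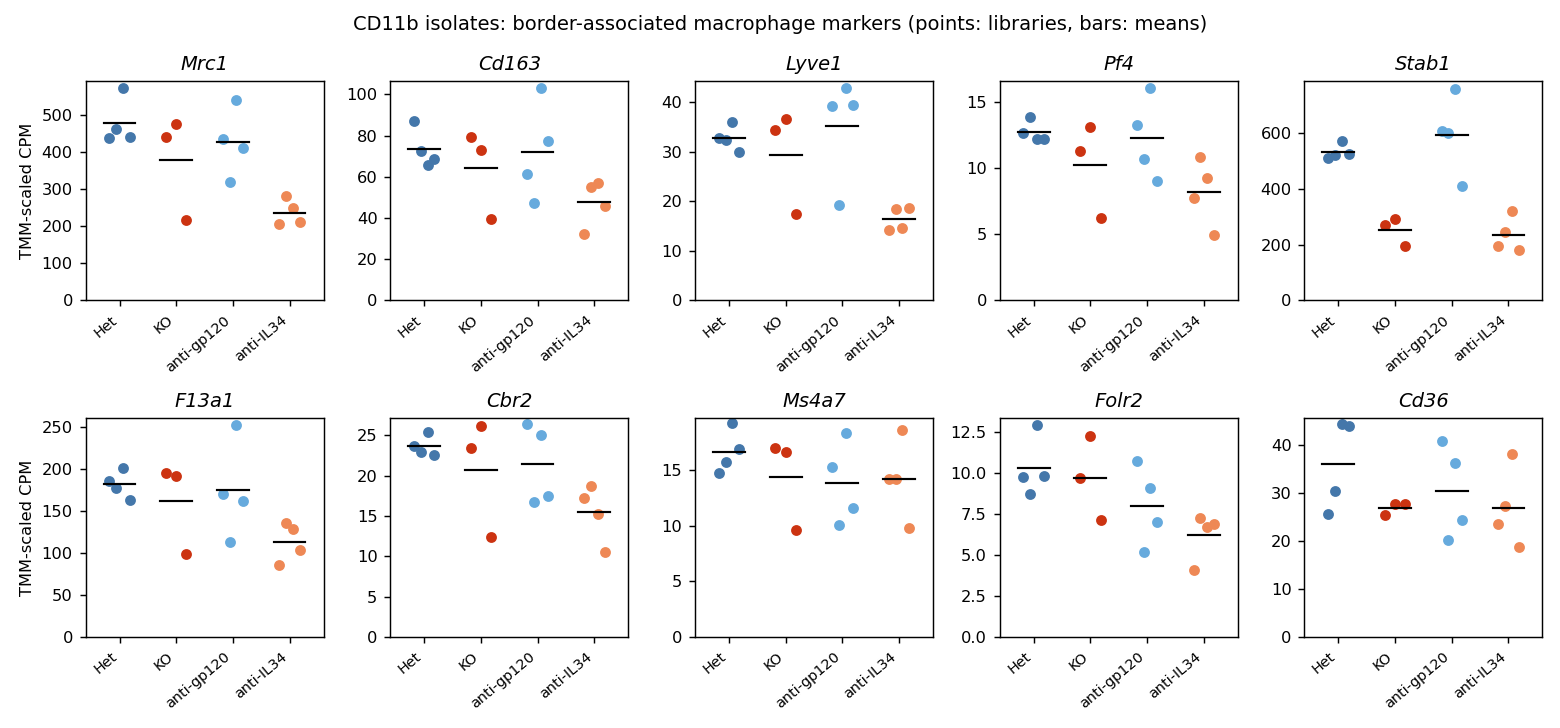
Levels of the 10 markers in CD11b isolates, in TMM-scaled CPM on linear axes from 0, for the 4 arms. Points are libraries and bars are arm means. KO animal 24 lies below the other KO animals for every marker but Cd36, and the Stab1 levels of both arms without IL34 lie below their controls.

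With Il34 deleted, Stab1 fell in isolates and the other 9 markers did not pass the test. Stab1 was 513, 521, 571 and 527 CPM in Het animals 1, 20, 21 and 23, and 269, 293 and 194 CPM in KO animals 3, 6 and 24. The arms did not overlap, as in 18.8% of 18856 genes with a mean of at least 0.2 CPM in isolates. The log2 fold change was -1.06 ± 0.187 (SE, adjusted p = 0.0281, edgeR quasi-likelihood), to 47.8% of the control level. In this comparison 5.37% of the 18185 genes tested passed, 5.22% as lower. Leaving out Het animal 20 or 23, or any of the 3 KO animals, ended the Stab1 call, with adjusted p from 0.0897 to 0.226 and log2 fold changes from -1.19 to -0.92. Mitochondrial genes took 4.75 to 10.2% of the counts in Het isolates and 10.9 to 15.4% in KO isolates, without overlap; the part of this share in the differences between isolates was not tested. In each of the 5 edgeR fits without one of those animals 0 genes passed over all genes tested, with 2268 to 4465 at an unadjusted p of 0.05.

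Mrc1 levels were 439, 463, 574 and 442 CPM in Het isolates and 440, 477 and 217 CPM in KO isolates. KO animals 3 and 6 lay within the Het range, and KO animal 24 was the low one. The log2 fold change was -0.31 ± 0.28 (SE, adjusted p = 0.457, edgeR), and -0.06 without KO animal 24. The same library was lowest for Cd163 (39.6 CPM against 73.2 and 79.5), Lyve1 (17.4 against 34.4 and 36.6), Pf4 (6.20 against 11.3 and 13.1), F13a1 (99.4 against 192 and 195), Cbr2 (12.4 against 23.5 and 26.2), Ms4a7 (9.62 against 16.6 and 17.0) and Folr2 (7.10 against 9.67 and 12.2). Its oligodendrocyte genes summed to 17528 CPM, against 7469 and 8787 CPM in the other KO isolates and 2941 to 9731 CPM in Het isolates. Its fibroblast genes summed to 512 CPM, against 1101 and 832 CPM. The part of these cells in the low marker levels was not tested. Cd36 ran the other way within the arm, at 27.7 CPM in KO animal 24 and 25.3 and 27.6 CPM in animals 3 and 6. Over the 10 markers the median log2 fold change was -0.17, beside -1.79 for the microglia-restricted genes, of which 11 of 11 passed as lower, and -1.33 for the shared macrophage genes, of which 12 of 14 passed as lower.

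In whole forebrain the deletion gave small differences, and none of the 10 markers passed the test. Of the 19343 genes tested 0.62% passed, 0.615% as lower. Oligodendrocyte genes summed to 5083 to 6049 CPM in Het and 4130 to 4434 CPM in KO forebrain, and mitochondrial genes took 5.05 to 5.39% and 4.7 to 4.91% of counts, both without overlap; their part in the marker differences was not tested. Stab1 came nearest: it was 15.1, 14.0, 17.2 and 15.0 CPM in Het and 9.2, 11.2 and 12 CPM in KO forebrain. These arms did not overlap, and the log2 fold change was -0.50 ± 0.102 (SE, adjusted p = 0.0503, edgeR). DESeq2 gave 0.000927 for the same gene, and leaving out Het animal 20 gave 0.0306, while leaving out KO animal 3 took it to 0.52. Mrc1 was 9.26, 7.66, 10.8 and 10.5 CPM in Het and 6.68, 8.36 and 7.00 CPM in KO forebrain, where KO animal 6 lay above Het animal 20 (log2 fold change -0.35 ± 0.13, adjusted p = 0.535, edgeR). Cbr2 did not overlap between the arms either, at 0.480 to 0.803 CPM in Het and 0.284 to 0.480 CPM in KO, although Het animal 20 and KO animal 6 had 26 counts each and nearly the same level, and its log2 fold change was -0.69 ± 0.324 (adjusted p = 0.678, edgeR). Non-overlap in this direction occurred in 5.29% of the 19020 genes with a mean of at least 0.2 CPM in forebrain. The other markers, Cd163, Lyve1, Pf4, F13a1, Ms4a7 and Cd36, overlapped between the arms and had log2 fold changes of -0.52 (Ms4a7) to -0.18 (Pf4), with adjusted p from 0.572 to 0.949 by edgeR. Of the 10 markers 9 had a fitted change below 0, with a median of -0.38 beside -1.29 for the microglia-restricted genes, where 10 of 11 passed as lower. Folr2 was the exception at 0.19 ± 0.274, a value that rests on 12 to 41 counts per library.

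**Figure D2:**
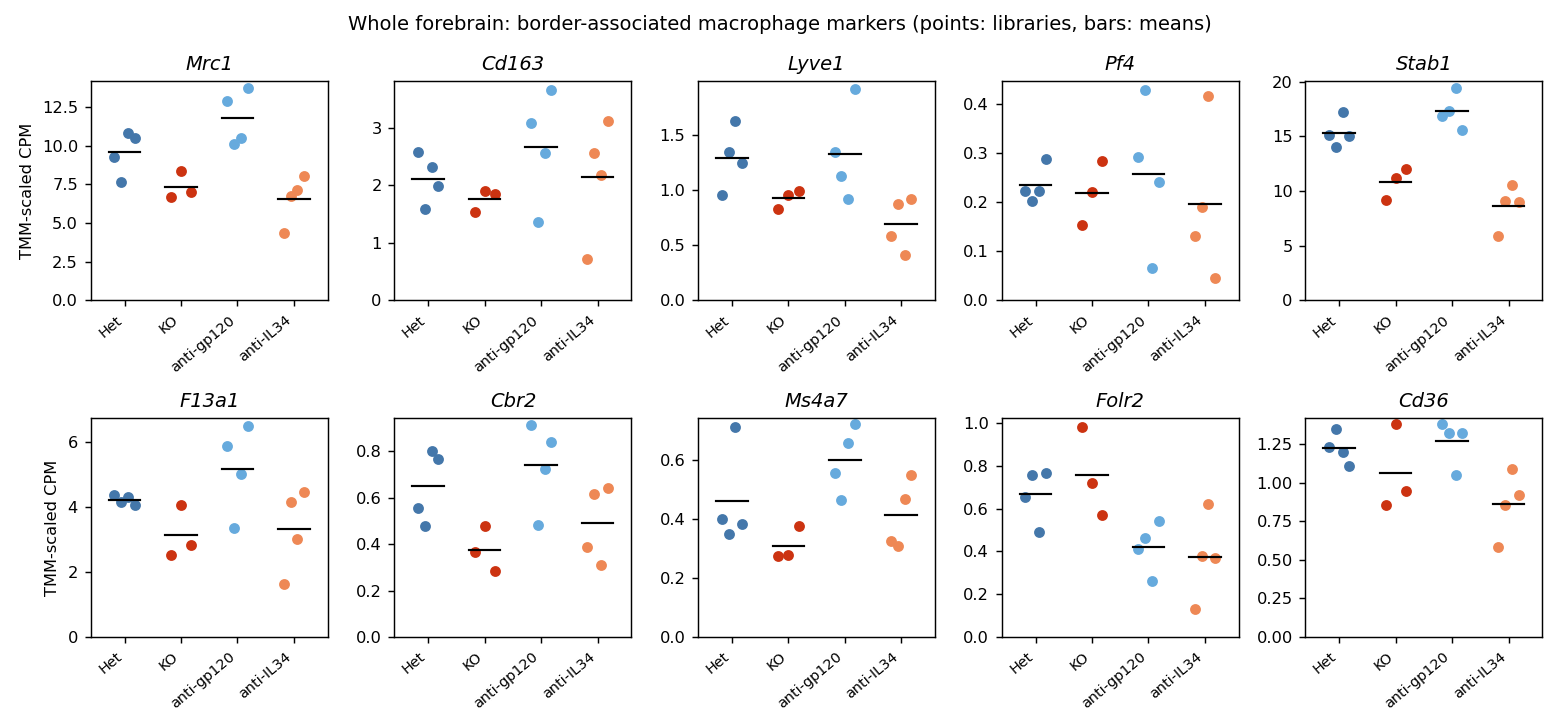
Levels of the 10 markers in whole forebrain, in TMM-scaled CPM on linear axes from 0, for the 4 arms. Points are libraries and bars are arm means. Stab1 does not overlap between arms in either experiment, and Pf4, Folr2, Cbr2 and Ms4a7 lie below 1 CPM in every library.

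The blocking antibody lowered Stab1 in forebrain. Stab1 was 16.9, 17.3, 19.4 and 15.6 CPM in anti-gp120 animals 1, 7, 8 and 15, and 5.91, 9.12, 10.6 and 9 CPM in anti-IL34 animals 2, 10, 11 and 24. The arms did not overlap, and the log2 fold change was -0.96 ± 0.141 (SE, adjusted p = 0.00893, edgeR quasi-likelihood), to 51.4% of control. It was the 1 marker of 8 tested that passed, where 0.717% of 17143 genes passed, 0.525% as lower. Mural cell genes, which mark vessel walls, summed to 259 to 278 CPM in anti-gp120 and 222 to 253 CPM in anti-IL34 forebrain, without overlap; their part in the marker values was not tested. The adjusted p was 0.0524 without anti-gp120 animal 7 and 0.0502 without anti-IL34 animal 11, and under 0.05 with any other animal left out.

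Mrc1 was 12.9, 10.1, 10.5 and 13.7 CPM in anti-gp120 forebrain and 4.35, 6.74, 7.16 and 8.04 CPM in anti-IL34 forebrain. Every treated library lay below every control, which occurred in 2.08% of 19020 genes. The log2 fold change was -0.81 ± 0.174, with an adjusted p of 0.0789 by edgeR and 0.0013 by DESeq2. Lyve1 did not overlap either, at 0.920 to 1.92 CPM in anti-gp120 and 0.415 to 0.918 CPM in anti-IL34 forebrain (log2 fold change -0.88 ± 0.312, adjusted p = 0.657, edgeR). Its nearest libraries were all but equal in level, anti-gp120 animal 8 with 14 counts and anti-IL34 animal 24 with 20 counts. For Cd163 the arms overlapped widely, at 1.37 to 3.67 and 0.715 to 3.12 CPM (log2 fold change -0.18 ± 0.373). F13a1, Cbr2, Ms4a7 and Cd36 overlapped as well, with log2 fold changes of -0.57 to -0.46 and adjusted p from 0.909 to 0.999 by edgeR. Pf4 and Folr2 did not pass the filter on low counts, with as few as 1 and 2 counts in a library. Anti-IL34 animal 2 was the lowest of its arm for Mrc1, Cd163, Stab1, F13a1, Folr2 and Cd36, and its fibroblast genes summed to 144 CPM against 202 to 239 CPM in the rest of the arm; the part of those cells in the marker levels was not tested. Without that animal the log2 fold change of Mrc1 was -0.69 and that of Stab1 -0.85. The median over the 8 markers tested was -0.56, beside -1.69 for the microglia-restricted genes, where 10 of 11 passed as lower.

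In isolates of the antibody experiment the mitochondrial share was 5.38 to 14.9% of counts (median 6.49%) in anti-gp120 and 10.4 to 15.4% (median 14.3%) in anti-IL34 libraries, and its part in the values was not tested. Choroid plexus genes summed to 87.9, 143, 89.1 and 205 CPM in anti-gp120 animals 1, 7, 8 and 15, and to 177, 3400, 910 and 256 CPM in anti-IL34 animals 2, 10, 11 and 24. The arms overlapped, and the part of that tissue in the marker values was not tested. No marker passed, where 0.626% of 17570 genes did, 0.603% as lower. At an unadjusted p of 0.05 there were 4559 genes, and by DESeq2 2015 genes passed, 3 of the markers among them. Those 3 were Stab1, Mrc1 and Lyve1, which also did not overlap between arms, something seen in this direction in 12.3% of 18856 genes. Stab1 was 607, 601, 759 and 411 CPM in anti-gp120 and 194, 246, 320 and 181 CPM in anti-IL34 isolates. Its log2 fold change was -1.27 ± 0.239, to 41.4% of control, with an adjusted p of 0.0565 by edgeR and 0.000121 by DESeq2. Mrc1 was 436, 320, 541 and 411 CPM in anti-gp120 and 207, 281, 249 and 211 CPM in anti-IL34 isolates, and its highest treated library lay below the lowest control. Its log2 fold change was -0.75 ± 0.175, with an adjusted p of 0.0775 by edgeR and 0.00229 by DESeq2. Lyve1 was 39.3, 19.2, 42.9 and 39.5 CPM in anti-gp120 and 14.2, 18.4, 14.7 and 18.7 CPM in anti-IL34 isolates, with 19.2 CPM in anti-gp120 animal 7 close to the treated arm. Its log2 fold change was -0.99 ± 0.256, with an adjusted p of 0.0944 by edgeR and 0.00583 by DESeq2. Lyve1 also marks lymphatic endothelium. A list of 6 genes for it summed to 105 to 108 CPM in anti-gp120 and 87 to 94.3 CPM in anti-IL34 isolates. That sum was higher in whole forebrain, 215 to 250 and 202 to 238 CPM in these arms, so it cannot be read as the level of lymphatic endothelium. Fibroblast genes summed to 394 to 470 CPM in anti-gp120 and 483 to 584 CPM in anti-IL34 isolates. In isolates neither sum overlapped between arms, and their part in the marker values was not tested. The edgeR call of Stab1 was reached without anti-gp120 animal 15 (adjusted p = 0.00339) and without anti-IL34 animal 11 (0.0402). Those of Mrc1 and Lyve1 were reached without anti-gp120 animal 15 (0.0103 and 0.0199). In those fits 40.4% of all genes passed without animal 15 and 3.02% without animal 11, so the calls without animal 15 are read against a high background. That library had the highest astrocyte sum of its arm, 18125 CPM against 4652 to 9204 CPM; its part in the calls was not tested.

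The other 7 markers overlapped between the antibody arms in isolates. Cd163, Pf4, F13a1 and Cbr2 had log2 fold changes of -0.39 to -0.52, with adjusted p from 0.217 to 0.24 by edgeR, and Folr2 had -0.31 ± 0.277 (adjusted p = 0.454, edgeR). Ms4a7 was 15.3, 10.1, 18.3 and 11.6 CPM in anti-gp120 and 14.2, 14.2, 18.6 and 9.82 CPM in anti-IL34 isolates, so its arms covered the same range (log2 fold change 0.15 ± 0.219, adjusted p = 0.66, edgeR). Cd36 did so too, at 20.2 to 40.7 and 18.7 to 38.0 CPM, with -0.10 ± 0.268. The median over the 10 markers was -0.46, beside -1.42 for the microglia-restricted genes, where 9 of 11 passed as lower, and -0.69 for the shared macrophage genes, where 1 of 14 did.

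**Figure D3:**
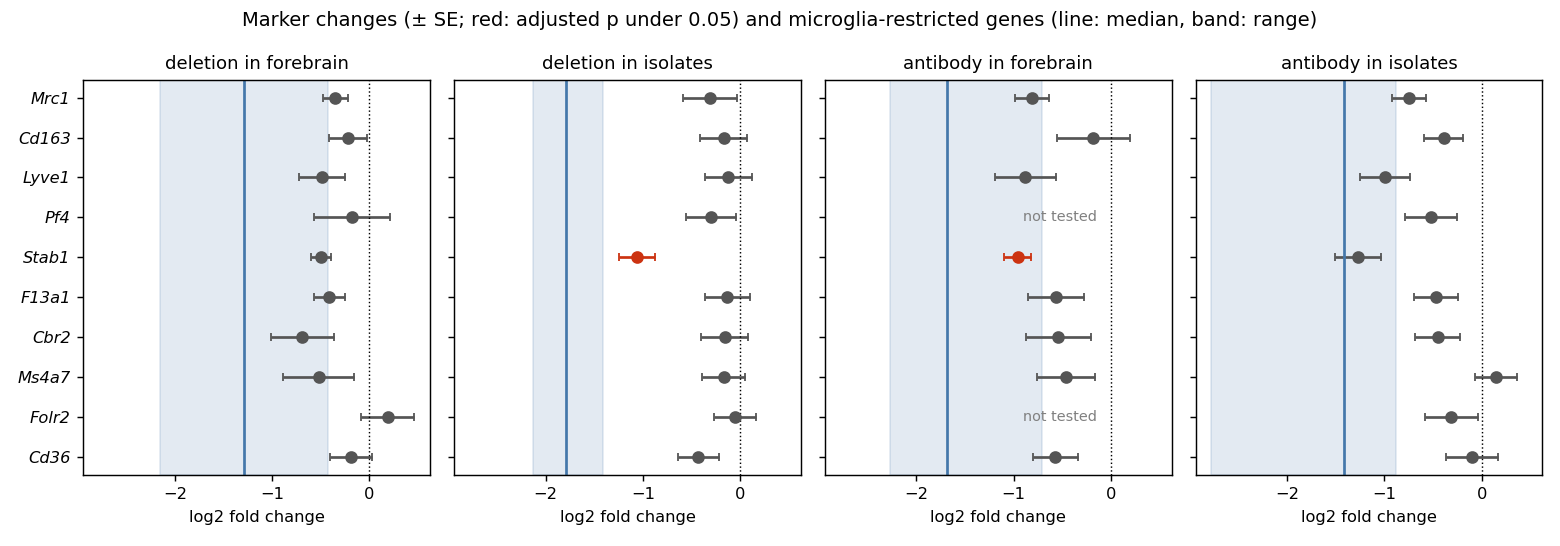
Log2 fold changes of the 10 markers in the 4 comparisons of arms (points, with SE), red where the adjusted p is under 0.05. The blue line and band give the median and range of the microglia-restricted genes. All markers lie to the right of the blue line, and Stab1 lies nearest to it in both isolate panels.

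Named microglia genes show the size of the fall that the markers are set against. P2ry12, the purine receptor of microglia, changed by -1.85 and -2.18 in forebrain and by -1.92 and -1.93 in isolates (log2, deletion and antibody), and passed each time with adjusted p of at most 0.0252 by edgeR. Tmem119 changed by -1.85, -1.84, -1.92 and -1.40 in the same order and passed each time. In antibody isolates Csf1r (-0.99, adjusted p = 0.0749, edgeR) and C1qa, a complement component (-0.62, adjusted p = 0.149, edgeR), missed the threshold. Cx3cr1, the fractalkine receptor, changed by -1.37 and -1.41 in forebrain and by -1.60 and -1.16 in isolates (deletion and antibody). It passed in all 4 comparisons.

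When library sizes were replaced by the geometric mean of the microglia-restricted genes, which asks whether a gene changed differently from them, most markers passed as higher. The counts were 9 of 10 for the deletion in forebrain, 10 of 10 in isolates, 8 of 8 for the antibody in forebrain and 8 of 10 in isolates. Of all genes, 96.4%, 93.8%, 99.6% and 97.1% passed in those fits, so the markers' share is near the background. With 1 animal left out the counts were 7 to 10, 8 to 10, 6 to 8 and 7 to 9. The calls of Ms4a7 in deletion forebrain (2 of 7 such fits past the threshold), Pf4 there (4 of 7), Stab1 in deletion isolates (4 of 7) and Lyve1 in antibody forebrain (4 of 8) depended most on the animal left out. Cbr2, which missed the threshold in deletion forebrain (adjusted p = 0.0688, edgeR), passed it in 3 of 7 such fits. The sizes say more: the markers' medians were 0.99, 1.55, 1.09 and 1.12, beside 1.38, 1.75, 1.65 and 1.59 for all genes tested, so in these fits the markers' medians lay below those of all genes. For the deletion in isolates this rests on KO animal 24, without which both medians were 1.77. Stab1 had the smallest value in deletion isolates (0.66 ± 0.223, adjusted p = 0.02, edgeR) and in antibody isolates (0.27 ± 0.23, adjusted p = 0.27). In antibody isolates the Lyve1 difference, 0.60 ± 0.346, also missed the threshold (adjusted p = 0.117, edgeR). It was 1.10 without anti-IL34 animal 11 (adjusted p = 0.0054) and 0.66 without anti-gp120 animal 15 (0.0449), both past it, and 0.22 without anti-gp120 animal 7 (0.537). Relative to the shared macrophage genes 7 of 10 markers passed for the deletion in forebrain and 9 of 10, all but Stab1, in isolates, where 93.8% and 83.5% of all genes did. For the antibody in forebrain 1 of 8 passed, Cd163, where 96.7% of all genes did. For the antibody in isolates 0 of 10 passed by edgeR, where 1.36% of all genes did and 10242 reached an unadjusted p of 0.05.

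Within each library Stab1 can be set against the mean of the other 9 markers, on the scale of log2(CPM + 0.5). Stab1 stood above that mean by 3.61 to 3.68 in Het and 2.72 to 3.00 in KO isolates, and by 3.55 to 4.46 in anti-gp120 and 2.98 to 3.39 in anti-IL34 isolates. The arms did not overlap in either experiment. On level alone, 18.8% of 18856 genes separated downward in isolates for the deletion and 12.3% for the antibody. The share of all genes that separate in this ratio was not computed. Stab1 was singled out after its values were seen, so its differences from the other 9 markers are a description.

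**Figure D4:**
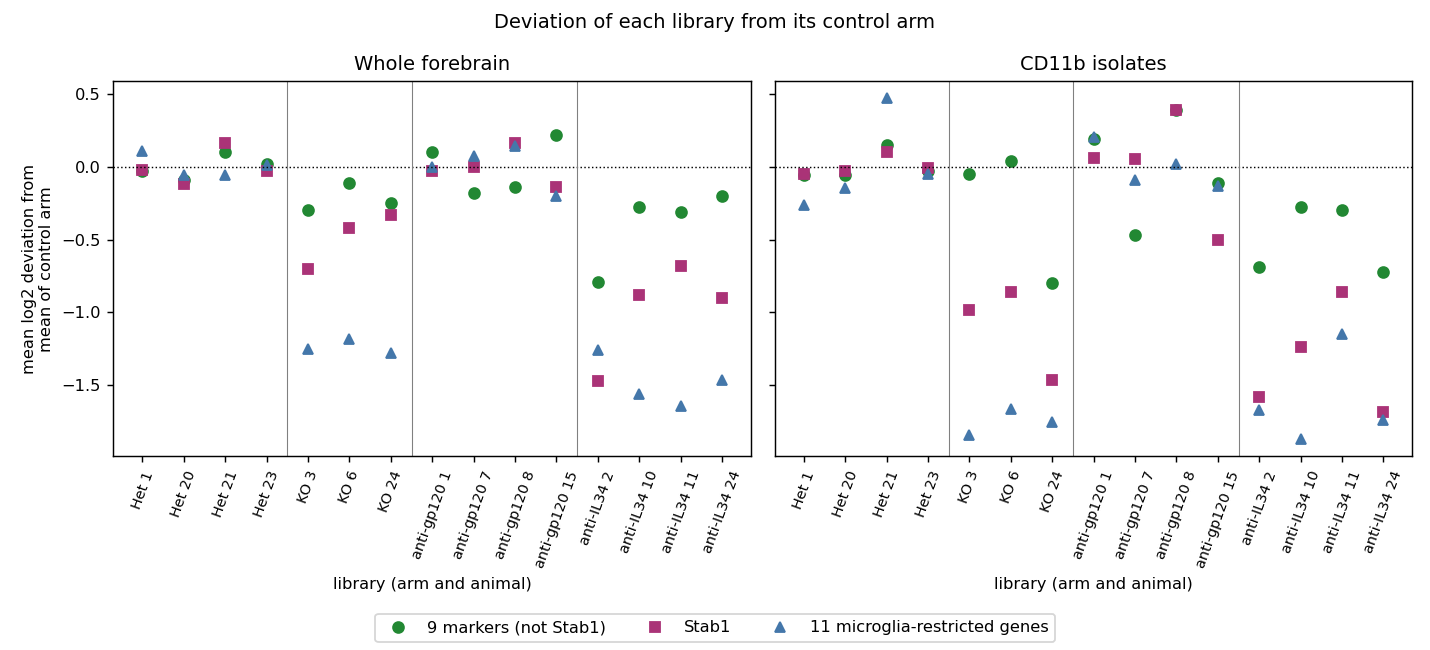
Mean deviation of each library from the mean of its control arm, on the log2(CPM + 0.5) scale, for the 9 markers other than Stab1 (circles), Stab1 (squares) and the 11 microglia-restricted genes (triangles). In KO isolates the 9 markers lie at -0.05, 0.04 and -0.80 while the microglia genes lie at -1.84 to -1.66, and Stab1 lies between them. In forebrain several of the 9 markers lie near or below 1 CPM, where the added 0.5 shrinks their deviations.

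The effects did not differ detectably between tissues or between experiments for any marker. For the deletion, the effect in isolates less that in forebrain ran from -0.52 ± 0.226 (Stab1, adjusted p = 0.147, edgeR) to 0.57 ± 0.44 (Cbr2), and 2.98% of 20107 genes passed. These fits do not pair the tissues of an animal; with the animal as a block 0 genes passed by edgeR, with 5662 at an unadjusted p of 0.05. For the antibody it ran from -0.32 ± 0.313 (Stab1) to 0.59 ± 0.375 (Ms4a7, adjusted p = 0.345, edgeR), and 0.0924% of 18399 genes passed, or 0 with the animal as a block by edgeR, with 4232 at an unadjusted p of 0.05. The deletion effect less the antibody effect ran from -0.16 ± 0.464 (Cbr2) to 0.44 (Stab1, SE 0.185, Mrc1, SE 0.232, and Pf4, SE 0.699, each with an adjusted p of 1 by edgeR) in forebrain, with 0.0101% of 19724 genes passing. In isolates it ran from -0.32 ± 0.373 (Cd36) to 0.95 ± 0.384 (Lyve1, adjusted p = 1, edgeR), with 0 of 18732 genes passing and 740 at an unadjusted p of 0.05. The Lyve1 arms did not overlap in antibody isolates and overlapped in deletion isolates, and the test of that difference missed the threshold. A p that misses the threshold does not show that the effects were equal.

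Across the 15 isolates the genes most like each marker were found among 14733 other genes by the root mean square (RMS) difference of centred log2(CPM + 0.5) values. Other markers came first for Mrc1 (F13a1, RMS 0.169), Cd163 (F13a1, 0.137), Lyve1 (Mrc1, 0.201), F13a1 (Cd163, 0.137) and Pf4 (Cbr2, 0.15). Dab2, an endocytic adaptor on the further list of border macrophage genes, was nearest to Cbr2 (0.148), and Clec10a, a lectin on that list, to Folr2 (0.209). Ms4a7 was nearest to Cd4 (0.15), Nlrc4 and Kmo. Cd36 was nearest to Naa16, Nol10 and Bclaf3 (0.195 to 0.208), and Stab1 to Pyroxd2 (0.164), Gm33699 and Asb10. For Stab1, 679 genes were nearer than the first of the other markers, against 0 to 97 for the rest. Stab1 was also the 1 marker closer to the mean of the microglia-restricted genes (RMS 0.362) than to the mean of its fellow markers (0.475), where the others lay at 0.683 to 0.847 and 0.138 to 0.35. The libraries share depth and composition, so likeness here is a description.

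A further 21 border macrophage genes gave 0 of 16, 1 of 21, 1 of 12 and 0 of 21 passing for the deletion in forebrain, the deletion in isolates, the antibody in forebrain and the antibody in isolates. Of all genes tested 0.62%, 5.37%, 0.717% and 0.626% passed in those fits, so 1 of 21 in deletion isolates is near the background. The 1 gene passing was Hpgd, which encodes the enzyme that inactivates prostaglandins, in both cases. It changed by -0.54 ± 0.137, -1.49 ± 0.259, -0.87 ± 0.12 and -1.04 ± 0.178 in that order, with adjusted p of 0.16, 0.0274, 0.00683 and 0.0515 by edgeR. Siglec1, the sialic acid receptor of tissue macrophages, had positive values after the antibody, 1.04 ± 0.302 in forebrain and 1.18 ± 0.348 in isolates, and missed the threshold (adjusted p = 0.335 and 0.119, edgeR). With the deletion its values were negative, -0.31 ± 0.36 in forebrain and -0.70 ± 0.335 in isolates (adjusted p = 0.888 and 0.186, edgeR), and the difference between the experiments missed the threshold (adjusted p = 1 and 0.654, edgeR). Gas6, a ligand of TAM receptors, was at -0.72 ± 0.222 in deletion and -0.92 ± 0.181 in antibody isolates (adjusted p = 0.104 and 0.0579, edgeR), and Ms4a6d at -0.89 ± 0.244 in deletion isolates (0.0857). The remaining genes with the smallest p-values missed the threshold. Apoe, an apolipoprotein, was at -0.19 ± 0.0461 in deletion and -0.21 ± 0.106 in antibody forebrain, and had the opposite sign in isolates, 0.39 ± 0.241 and 0.56 ± 0.218. Its mean was 511 CPM in Het forebrain and 1534 CPM in Het isolates. Astrocyte sums in isolates also had higher medians without IL34, 14589 against 6732 CPM (deletion) and 15775 against 7482 CPM (antibody). The part of astrocytes in the Apoe values was not tested. Tgfbi lay between -0.54 and -0.39 in the 4 comparisons. Nrp1 was at -0.54 in deletion and -0.41 in antibody isolates, and at 0.04 and 0.00 in forebrain, and Ccl24 at -0.51 and -0.77 in isolates. Medians over the list were -0.14, -0.26, -0.05 and -0.26, and for all genes tested they lay between 0.00 and 0.06.

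The 4 genes of MHC class II, which present antigen and are raised in a subset of border macrophages, did not pass in any of the 4 comparisons of arms. In isolates Cd74, the invariant chain, changed by -0.35 ± 0.227 with the deletion and 0.00 ± 0.278 with the antibody. H2-Aa, H2-Ab1 and H2-Eb1 lay between -0.38 and -0.16 in isolates. In forebrain H2-Aa had opposite signs in the experiments, 0.68 ± 0.39 with the deletion and -0.74 ± 0.321 with the antibody, neither past the threshold (adjusted p = 0.74 and 0.976, edgeR). Their summed level in isolates, 157 to 442 CPM, overlapped in all arms.

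Platelets also make Pf4, and monocytes share several markers, so those lists were read beside them. The 8 platelet genes summed to 6.87 to 9.83 CPM in control isolates and 3.64 to 6.47 CPM in the isolates without IL34, without overlap; their part in the Pf4 values was not tested. Pf4 was above the sum of its own library in 14 of 15 isolates. Monocyte genes summed to 687 to 1641 CPM in the isolates, with overlapping ranges in all arms.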

How the data were processed

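Per the labels' protocols, RNA came from a TRIzol extraction and libraries from a low-input SMART-Seq kit. The authors deposited unnormalised read counts per gene, made with STAR 2.7.5c, featureCounts 1.6.3 and R 4.4.0 on build GRCm38, per the submitters' processing notes. The length in that table equals the whole gene span in GENCODE M21 for 51183 of 51498 matched identifiers, so intron reads may be counted. The 8 rows without a gene symbol stayed in the fits. The deposited TPM table was not used, nor were 6 columns that match no labelled sample. The deposited sample sheet also gives an animal number, a unit of its own, which matched the labels for 30 of 30 libraries.

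The test was edgeR's (version 4.0.16, R 4.3.3; quasi-likelihood F test, TMM scaling, the default filter on low counts, sex as a covariate, Benjamini-Hochberg adjustment over all genes tested, threshold 0.05). The SE of a log2 fold change is its size over the root of F. Each comparison of arms used 1 tissue of 1 experiment. Males numbered 2 of 4 in the Het and anti-gp120 arms, 1 of 3 in KO (animal 3) and 3 of 4 in anti-IL34, so an arm loses a sex when KO animal 3 or anti-IL34 animal 11 is left out. Tissue differences were tested as interactions, and differences between experiments over the 15 libraries of a tissue. Alternatives were DESeq2 1.42.0, its size factors, no low-count filter, no sex term, all 15 libraries, the animal as a block, another reference list and each animal left out. The fits were tested on simulated data: of 50 genes changed by -1 (log2), 90 to 96% were recovered in the 4 comparisons of arms. The simulation gave all genes 1 fixed spread, changed only well-counted genes and held no animal that differed from its arm. These shares are therefore not the power of the fits on the real libraries.

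Forebrain and isolate libraries of an animal are paired by the labels' animal number. Their deviations from group means correlated with a median of 0.175 over 15 animals (0.0772 to 0.375, above 0.1 in 12), against -0.0563 for different animals of an arm. Replicates were distinct: among 42 pairs of one group, chi-square over its degrees of freedom was at least 5.48. The depth of 15.1 to 75.2 M counts leaves counting error large for markers with under about 30 counts in forebrain.

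The members and lists were chosen with earlier results of these data known. All 10 markers are described, those that moved least by ranges. Of the further border macrophage and MHC class II lists, the 4 genes with the smallest p in each comparison are named. Of the microglia and shared lists, genes fixed by name are given, 1 of which is not reported here, and for likeness the nearest 3 genes. Fcrls of the microglia list has no row under that name, which left 11 genes. Genes with a count of 0 in a library were left out of the reference lists, which removes Itgam. A list of 8 markers each for choroid plexus, monocytes, neutrophils, platelets and fibroblasts, and 7 each for astrocytes, oligodendrocytes and mural cells, was summed. In isolates neutrophil genes summed to 28.6 to 524 CPM, mural genes to 793 to 2312 CPM and blood endothelial genes to 870 to 1834 CPM.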

Additional observations from a re-analysis of the deposited data

Results flagged for a closer look

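Within arms of 4 animals, the highest or lowest library was compared with the others by Dixon's ratio (critical value 0.829) for each marker, 60 groups in all, of which chance flags about 1 in 20. It picked out 2. Lyve1 in anti-gp120 isolates was 19.2 CPM in animal 7, with 39.3 CPM as the nearest of the other values (ratio 0.85). Ms4a7 in Het forebrain was 0.714 CPM in animal 21, with 0.399 CPM as the nearest (ratio 0.869), a difference of 32 against 25 counts at different depths. No test of a difference between tissues or experiments passed for a marker.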

How the results depend on the processing

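The number of markers past the threshold depended on the settings. For the deletion in forebrain it was 0, and 1 with DESeq2 or without sex, 2 without the low-count filter, and 0 to 1 with an animal left out. For the deletion in isolates it was 1 under every setting other than leaving out an animal, which gave 0 to 1. For the antibody in forebrain it was 1, and 2 with DESeq2, without the filter, without sex or with all 15 libraries, and 0 to 1 with an animal left out. For the antibody in isolates it was 0, and 3 with DESeq2, without the filter or without sex, 2 with all 15 libraries, and 0 to 3 with an animal left out. Relative to shared macrophage genes 7 and 9 of 10 markers passed for the deletion, 1 marker passed for the antibody in forebrain and 0 in isolates, and there Lyve1 (-0.22) and Stab1 (-0.53) turned negative.

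Counts over all genes also moved. Without the filter 381 genes passed for the deletion in forebrain, where 120 did as reported, and leaving out an animal gave 55 to 117. For the deletion in isolates, 976 as reported, the counts were 3887 with DESeq2, 1993 without the filter, 2189 without sex, 2734 with all 15 libraries, and 0 to 5756 with an animal left out (5756 without Het animal 1, 3115 without Het animal 21, and 0 without each of the others). For the antibody in forebrain, 123 as reported, they were 198, 349 without the filter, 204 with all libraries, and 25 to 126. For the antibody in isolates, 110 as reported, they were 2015, 819 without the filter, 983 without sex, 988 with all libraries, and 0 to 6905 (the highest with control animal 15 left out, 514 with treated animal 11 left out, and at most 6 otherwise). The cause was not tested.

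Small changes turned sign with an animal left out. These were, for the deletion in forebrain, Cd163 (-0.36 to 0.07), Folr2 (-0.20 to 0.32) and Cd74 (-0.25 to 0.00), and in isolates Cd163 (-0.36 to 0.06), Lyve1 (-0.37 to 0.12), F13a1 (-0.34 to 0.09), Cbr2 (-0.42 to 0.07), Ms4a7 (-0.34 to 0.02) and Folr2 (-0.28 to 0.10). For the antibody they were Cd163 in forebrain (-0.49 to 0.15), and in isolates Folr2 (-0.51 to 0.02), Cd36 (-0.38 to 0.29), H2-Aa (-0.49 to 0.09), H2-Eb1 (-0.48 to 0.23), H2-Ab1 (-0.47 to 0.23) and Cd74 (-0.38 to 0.30, and -0.01 with either DESeq2 scaling or all libraries, -0.03 without the filter). Differences between effects, none past the threshold, also changed sign over the settings. For the deletion effect less the antibody effect these were Cd163 (-0.26 to 0.29), F13a1 (-0.09 to 0.37), Cbr2 (-0.42 to 0.13), Ms4a7 (-0.25 to 0.15) and Folr2 (-0.04 to 0.61) in forebrain and Cd163 (-0.06 to 0.55) in isolates. For the tissue differences they were Mrc1, Cd163, Pf4, Ms4a7, Folr2 and Cd36 with the deletion, and Mrc1, Lyve1, Pf4, F13a1, Cbr2 and Folr2 with the antibody. Stab1, Mrc1 and Pf4 stayed negative in every setting of the 4 comparisons of arms that tested them, Pf4 in antibody forebrain in only 2. With the animal as a replicate block, 10 of 10 markers passed for isolates against forebrain and 0 of 10 for each tissue difference, so the block changed no call of a marker. Over all genes it took the counts for the tissue differences from 599 and 17 to 0 and 0.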
